A study of Bos taurus with 24 samples.

Results

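ATF4, HSP90B1 and FOXRED2 were followed through every condition of an experiment on bovine monocyte-derived macrophages (MDMs). They are 3 of the 24616 genes in the count files, and in the bovine annotation they carry the identifiers ENSBTAG00000017462, ENSBTAG00000003362 and ENSBTAG00000000015. The genes were picked for their link to the endoplasmic reticulum (ER) and to cell stress, and they were chosen by measured values as well, namely the difference between the phenotypes at 18 hours in the E. coli response. That 18-hour difference is therefore described here without a test, while the mean response to E. coli, its change with time and all comparisons at 3 hours were tested.

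The MDMs came from 6 lactating female Holstein cows, 3 classified as high and 3 as low responders by how much nitric oxide (NO) their MDMs released after E. coli. Monocytes attached from blood were grown for 6 days in serum-free AIM V medium with granulocyte-macrophage colony-stimulating factor, without other stimulation. Each cow gave 1 control well and 1 well with paraformaldehyde-inactivated E. coli, at a multiplicity of infection of 5, at 3 and at 18 hours, so there were 8 conditions with 3 libraries each. The harvested MDMs were seeded on separate plates for the 2 time points, so time cannot be told apart from culture plate. Only 3 cows stood behind a phenotype, and a library is named below by the number in its code. The labels do not say what this number stands for, and it may also mark a batch. The number was taken to pair the control and exposed well of a cow within 1 phenotype and 1 time point.

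ATF4 is a transcription factor of the integrated stress response. Its messenger RNA is translated more when the initiation factor eIF2 is phosphorylated, and it then turns on genes for amino acid synthesis and transport, for aminoacyl-tRNA synthetases and for the feedback of the response itself. HSP90B1, also called GRP94, is the HSP90 chaperone of the ER lumen and is needed to fold Toll-like receptors and integrins, while FOXRED2 is an ER flavoprotein that takes part in the degradation of misfolded ER proteins. Macrophages make large amounts of secreted and surface protein once they sense bacteria, and the unfolded protein response of the ER is known to be engaged in such cells. RNA level alone does not show how much ATF4 protein was made.

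Library totals ranged from 6297190 to 20936554 expected counts, with a median of 12375479. All 3 genes had whole counts in all 24 libraries, from 4488 to 20071 for ATF4, from 5205 to 35725 for HSP90B1 and from 9 to 188 for FOXRED2, so counting error weighs most on FOXRED2. Of the macrophage marker list, 4 of 10 genes could be looked up, and CD68 lay between 1215 and 2671 TPM (a length-corrected share of all transcripts) in every library. The others varied more, MSR1 from 15.5 to 788 TPM, CD14 from 41.0 to 321 TPM and AIF1 from 61.1 to 452 TPM. The summed TPM of these 4 genes, most of it CD68, was 2041 to 3800 in control wells at 3 hours and 1653 to 2536 in exposed wells, and 2259 to 3681 against 2442 to 2937 at 18 hours. The B cell gene CD79A did not exceed 2.67 TPM and the NK cell gene PRF1 did not exceed 2.5 TPM. PRF1 was at 2.09 to 2.5 TPM in exposed high responder wells at 18 hours and at 0.89 to 2.14 TPM in exposed low responder wells, and its part in any result was not tested. Markers of T cells, neutrophils, dendritic cells and platelets were not analysed here. In such bulk RNA, fewer cells of a type and less RNA per cell cannot be told apart.

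On the TPM scale, which divides by transcript length and so allows a comparison between genes, ATF4 and HSP90B1 were abundant and FOXRED2 was scarce. ATF4 lay between 574 and 1533 TPM and ranked between place 98 and place 263 among the genes of a library. HSP90B1 lay between 282 and 913 TPM, at ranks 179 to 481. FOXRED2 lay between 0.59 and 9.19 TPM, at ranks 8104 to 11404. Unless TPM is named, levels below are CPM, which scale counts to a common library size, here after TMM scaling over the 24 libraries, and the E. coli effect is the log2 ratio of exposed to control, with cow as a block. A gene was called at a Benjamini-Hochberg adjusted p below 0.05 with a fold change above 1.5 in edgeR's quasi-likelihood test over all genes. An exact permutation of 3 against 3 cows cannot go below a two-sided p of 0.1, so p-values between phenotypes come from that fit.

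ATF4 rose on exposure to E. coli in every cow at both times, by 2.49-fold at 3 hours and by 1.64-fold at 18 hours over both phenotypes. At 3 hours in high responders, ATF4 went from 612 to 1536 CPM in the cow coded 92, from 617 to 1599 in 94 and from 533 to 1638 in 93. In low responders it went from 661 to 1478 CPM in 92, from 805 to 1460 in 91 and from 625 to 1625 in 93. All 6 exposed wells thus stood above all 6 control wells, and the exposed wells of the phenotypes overlapped.

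At 18 hours the ATF4 level of high responders went from 520 to 988 CPM in 91, from 588 to 1133 in 93 and from 461 to 1002 in 94. Low responders went from 687 to 952 CPM in 91, from 827 to 1033 in 92 and from 678 to 1021 in 94. Exposed wells again stood above all control wells, but the 3 low responder controls were all higher than the 3 high responder controls, while exposed wells of both phenotypes reached like levels.

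The mean ATF4 effect was 1.32 on the log2 scale at 3 hours (SE 0.09, adjusted p = 7.18e-06 by edgeR's quasi-likelihood test) and 0.71 at 18 hours (SE 0.06, adjusted p = 5.25e-06). With library totals in place of TMM factors, a setting taken up once the values were known, the median of all genes shifted to -0.45 at 3 hours and -0.21 at 18 hours, and ATF4 stood at 0.89 and 0.52. The 18-hour value then kept an adjusted p of 3.35e-05 by edgeR but fell under the 1.5-fold limit. ATF4 was 1 of the 1522 genes called higher at 3 hours, 13.5% of the 11264 tested, and 1 of the 1770 called higher at 18 hours, 15.1% of 11759.

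**Figure D1:**
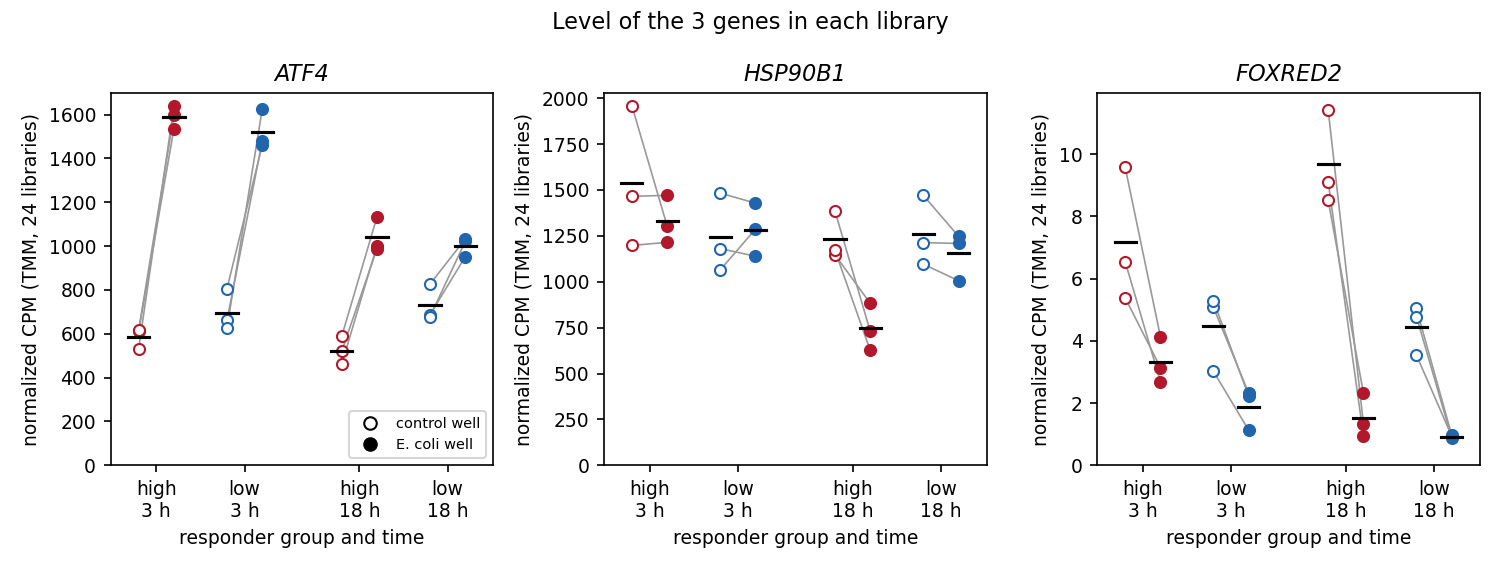
Level of ATF4, HSP90B1 and FOXRED2 in each of the 24 libraries, in CPM after TMM scaling (vertical axes, starting at 0), for high (red) and low (blue) responders at 3 and 18 hours. Open circles are control wells, filled circles are E. coli wells, grey lines join the wells of a cow, and black bars are means of 3 cows. ATF4 is higher in every exposed well than in any control well of the same time, FOXRED2 falls in every cow, and HSP90B1 is lowest in the 3 exposed high responder wells at 18 hours, between 626 and 883.

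HSP90B1 showed no call at either time. At 3 hours its level in high responders went from 1465 to 1471 CPM in 92, from 1959 to 1302 in 94 and from 1198 to 1215 in 93. In low responders it went from 1064 to 1287 CPM in 92, from 1181 to 1139 in 91 and from 1483 to 1428 in 93. Control and exposed wells overlapped in both phenotypes, and the fall in the high responder coded 94 started from the highest control level of all libraries.

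At 18 hours HSP90B1 went from 1147 to 883 CPM in high responder 91, from 1386 to 730.3 in 93 and from 1171 to 626 in 94. Low responders went from 1096 to 1006 CPM in 91, from 1471 to 1248 in 92 and from 1213 to 1209 in 94. The level was thus lower in the exposed well of all 6 cows, the exposed high responder wells lay below every other library, and the low responder wells overlapped between control and exposed.

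The mean HSP90B1 effect was -0.03 at 3 hours (SE 0.10, 95% interval -0.27 to 0.20, adjusted p = 0.816 by edgeR's quasi-likelihood test), and it was 0.07 without the high responder coded 94. At 18 hours it was -0.45 (SE 0.08, adjusted p = 0.000867 by edgeR), a fold change of 1.36 downward that stays under the 1.5-fold limit. The size of the 3-hour effect rests on the scale. With library totals the effect was -0.46 at 3 hours, against the all-gene median of -0.45, and -0.64 at 18 hours, which passed the limit. TPM, which is also relative to the whole library, went at 3 hours from 809 ± 110 to 539 ± 70.4 in high responders and from 679 ± 120 to 503 ± 56.4 in low responders (mean ± SD, n = 3).

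FOXRED2 fell on exposure in all 6 cows at 3 hours and in all 6 at 18 hours, by 2.19-fold and 5.56-fold over both phenotypes. At 3 hours high responders went from 6.55 to 2.68 CPM in 92, from 5.39 to 3.14 in 94 and from 9.59 to 4.13 in 93. Low responders went from 5.08 to 2.31 CPM in 92, from 3.02 to 1.13 in 91 and from 5.29 to 2.22 in 93. Control and exposed wells did not overlap within a phenotype, and every high responder well was higher than every low responder well of the same treatment.

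At 18 hours FOXRED2 went from 9.12 to 0.933 CPM in high responder 91, from 8.52 to 2.31 in 93 and from 11.4 to 1.32 in 94. Low responders went from 5.04 to 0.964 CPM in 91, from 3.54 to 0.936 in 92 and from 4.78 to 0.871 in 94. The control wells of high responders stood apart above those of low responders, and the exposed wells of the phenotypes overlapped. Behind the exposed wells at 18 hours were 50 counts in the 3 high responder libraries together and 42 in the 3 low responder libraries, against 430 and 205 in the controls.

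The mean FOXRED2 effect was -1.13 at 3 hours (SE 0.16, adjusted p = 0.000571 by edgeR's quasi-likelihood test) and -2.47 at 18 hours (SE 0.21, adjusted p = 4.25e-06). It was called with library totals too, at -1.56 and -2.67. Genes called lower made up 12% of those tested at 3 hours, 1350 genes, and 21.4% at 18 hours, 2519 genes. Among all genes ordered from the most negative effect, FOXRED2 held place 391 of 11264 at 3 hours and place 351 of 11759 at 18 hours.

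**Figure D2:**
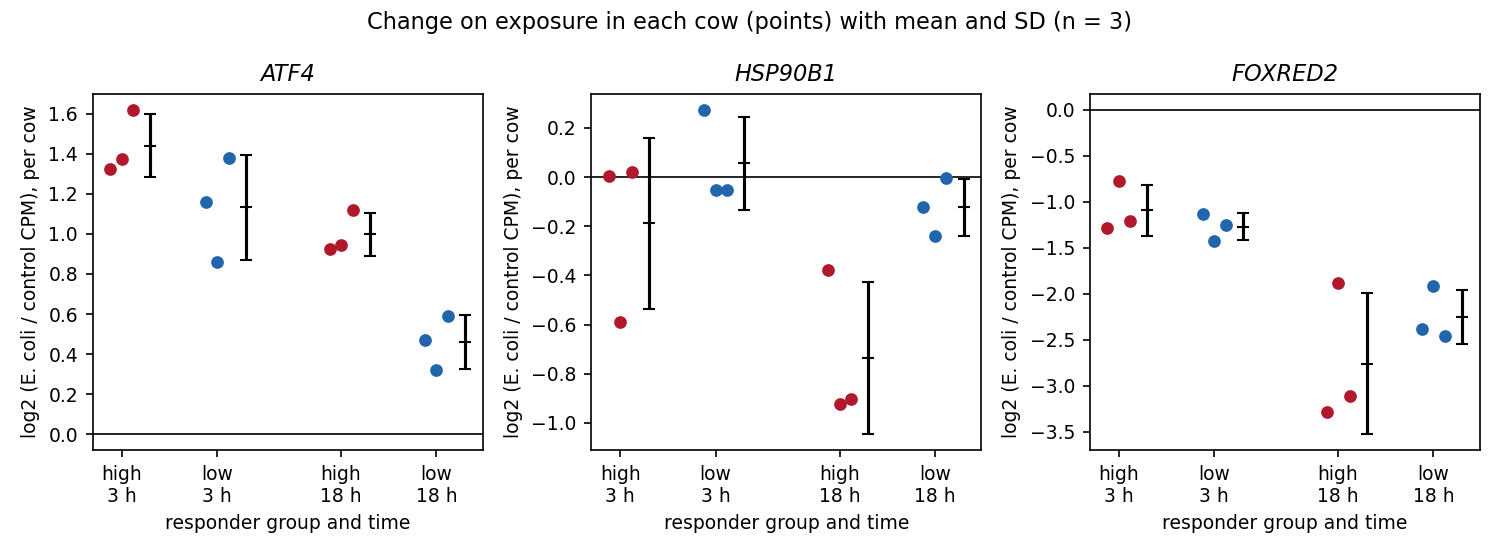
Log2 ratio of exposed to control level in each cow (points, TMM CPM) for the 3 genes, by responder group and time, with the mean and SD of 3 cows (black). The horizontal line marks no change. ATF4 lies above 0 and FOXRED2 below 0 in every cow, and HSP90B1 spans 0 at 3 hours and lies between -0.92 and -0.01 at 18 hours.

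Since the scale mattered for HSP90B1, ATF4 and FOXRED2 were also set against it within each library, where scaling cancels. The ratio of ATF4 to HSP90B1 TPM was 0.667 to 1.44 in the 6 control wells at 3 hours and 2.21 to 2.86 in the exposed wells. At 18 hours it was 0.831 to 1.33 in control wells and 1.75 to 3.40 in exposed wells. The ratio was higher in the exposed well of 6 of 6 cows at each time, with mean log2 changes of 1.35 (SD 0.41) and 1.16 (SD 0.68), and the control and exposed wells did not overlap.

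The ratio of FOXRED2 to HSP90B1 was lower in the exposed well of 6 of 6 cows at each time. Its mean log2 change was -1.12 at 3 hours (SD 0.46) and -2.08 at 18 hours (SD 0.67), and the value nearest 0, -0.19, was in the high responder coded 94 at 3 hours. The ratios were taken up after the changes of the single genes in each cow were known, so they are given as a description without a test. They hold only that the genes of a pair changed unequally, not which of them changed.

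**Figure D3:**
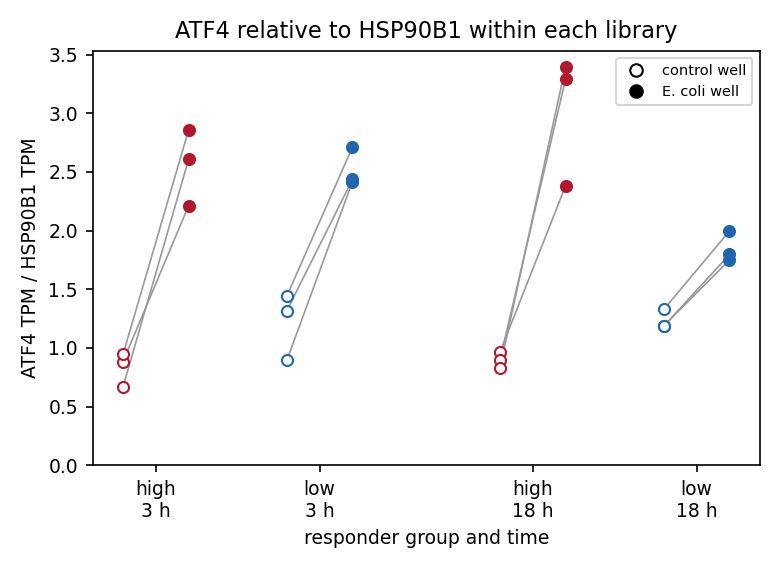
Ratio of ATF4 TPM to HSP90B1 TPM (vertical axis, no unit, starting at 0) in each library, for high (red) and low (blue) responders at 3 and 18 hours, with open circles for control wells, filled circles for E. coli wells and lines joining the wells of a cow. Control wells lie between 0.667 and 1.44, and exposed wells between 1.75 and 3.40.

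At 3 hours, none of the 3 genes was called for a difference between high and low responders. The E. coli effect on ATF4 was 1.49 in high responders (SE 0.13) and 1.14 in low responders (SE 0.13), a difference of 0.35 (95% interval -0.06 to 0.76, adjusted p = 0.461 by edgeR's quasi-likelihood test). The difference was -0.20 for HSP90B1 (interval -0.67 to 0.26, adjusted p = 0.714 by edgeR) and 0.22 for FOXRED2 (interval -0.52 to 0.97, adjusted p = 0.806). No member passed an unadjusted p of 0.05 or was called by DESeq2, and 20 genes in all were called, 0.178% of those tested. Intervals this wide do not show that the phenotypes responded alike. The HSP90B1 difference shrank to -0.03 without the high responder coded 94 and the FOXRED2 difference to 0.02, and the ATF4 difference was 0.21 without the low responder coded 91.

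No level at 3 hours was called different between the phenotypes either. Among control wells, high responders differed from low responders by -0.26 for ATF4 (adjusted p = 0.944 by edgeR), 0.31 for HSP90B1 (adjusted p = 0.954) and 0.69 for FOXRED2 (interval -0.16 to 1.54, adjusted p = 0.801). Among exposed wells the differences were 0.10, 0.08 and 0.86, the last with an interval of -0.08 to 1.80 and an adjusted p of 0.416 by edgeR. No member passed an unadjusted p of 0.05 or was called by DESeq2 in either comparison, where 1 gene (0.00906%) and 9 genes (0.0839%) were called in all. For HSP90B1 the control difference was 0.08 without the high responder coded 94.

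At 18 hours, the contrast that chose the genes, the E. coli effect on ATF4 was 0.98 in high responders (SE 0.09) and 0.44 in low responders (SE 0.09), which differ by 0.55 (SE 0.13). The HSP90B1 effect was -0.75 (SE 0.12) against -0.14 (SE 0.12), which differ by -0.60 (SE 0.16). The FOXRED2 effect was -2.68 (SE 0.29) against -2.26 (SE 0.31), which differ by -0.42 (SE 0.45), less than the error. In all, 1.62% of the genes tested were called in this contrast, and nothing is read from it about the members.

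The level differences between phenotypes at 18 hours (high minus low) make up the contrast that chose the genes, so they are values only. For ATF4 they were -0.49 (SE 0.13) in control wells and 0.05 (SE 0.12) in exposed wells. For HSP90B1 they were -0.04 (SE 0.14) in control wells and -0.63 (SE 0.16) in exposed wells. FOXRED2 was higher in high responders in both, by 1.12 (SE 0.21) in control wells and by 0.71 (SE 0.42) in exposed wells. The FOXRED2 difference of the effects was -0.92 without the high responder coded 93 and -0.15 without the one coded 91.

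Between 3 and 18 hours the FOXRED2 response deepened. Its E. coli effect changed by -1.29 over both phenotypes (SE 0.27, adjusted p = 0.00212 by edgeR's quasi-likelihood test), a call it shared with 16.1% of the 11905 genes tested, and the change was -1.11 with library totals. The ATF4 effect changed by -0.56 (SE 0.11, adjusted p = 0.00139 by edgeR), a fold change of 1.47 that misses the 1.5-fold limit by little and passes it with RLE size factors or DESeq2. The HSP90B1 effect changed by -0.36 (SE 0.14, adjusted p = 0.0539 by edgeR). The cows were not matched between the times in this fit.

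None of the 3 genes was called between the control wells of the times, in a fit over all 24 libraries that had no term for the cow. The intervals and p-values below therefore do not use the pairing of wells. The 18-hour minus 3-hour differences were -0.05 for ATF4 (95% interval -0.24 to 0.14), -0.15 for HSP90B1 (interval -0.42 to 0.12) and 0.21 for FOXRED2 (interval -0.26 to 0.68), with adjusted p of 0.917, 0.781 and 0.838 by edgeR. No member passed an unadjusted p of 0.05 or was called by DESeq2, and 6 genes were called in all, 0.0504%.

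Ordered by mean level over the 8 conditions, ATF4 ran from 1591 CPM in exposed high responder wells at 3 hours, through 1521, 1041 and 1002 in the other exposed conditions, to 730.4, 697, 587 and 523 in the control conditions. The neighbours 1521 and 1041 did not overlap, nor did 1002 and 730.4 or 697 and 587, and the other neighbours did. FOXRED2 ran from 9.69 CPM in high responder controls at 18 hours and 7.17 at 3 hours to 0.924 in exposed low responder wells at 18 hours. HSP90B1 ran from 1541 CPM in high responder controls at 3 hours to 1154 in exposed low responder wells at 18 hours with all neighbours overlapping, and then to 746 in exposed high responder wells at 18 hours, apart from the rest.

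Most of the ATF4 partners and targets that could be looked up were called higher on exposure, as ATF4 was. Of 47 listed partners and targets of ATF4, 26 could be looked up by symbol. At 3 hours 22 of the 25 tested were called higher and 0 lower by edgeR (by DESeq2 23 and 0, and 23 and 1 at an unadjusted p below 0.05), where 13.5% of all genes were called higher and 12% lower. The median log2 effect was 1.18 against -0.02 for all genes. At 18 hours 18 of 26 were called higher and 1 lower, where 15.1% and 21.4% of all genes were, with a median of 0.83 against -0.02. These counts are on the mean of both phenotypes. As values only, the 18-hour difference, high minus low, was above 0 for 25 of the 26. Low responders alone had effects of 0.40 on TRIB3, 0.09 on SLC7A5 and -0.09 on PSAT1, but 1.69 on DDIT4 and 1.72 on WARS1. NUPR1, a stress-induced chromatin factor, had an effect of 1.00 at 3 hours but -0.09 at 18 hours (SE 0.09, adjusted p = 0.414 by edgeR), and PYCR1, an enzyme of proline synthesis, had 0.15 and 0.22 and was called at neither time. The list is not a random draw. Symbols could be read only from part of a table of genes ordered in part by the 18-hour difference, and 21 of the 26 were named there alone, so the counts describe these genes and not all ATF4 targets.

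DDIT4, an inhibitor of mTORC1, had the largest effect of the list at 3 hours, 4.40 (SE 0.12, adjusted p = 5.63e-08 by edgeR's quasi-likelihood test). In high responders its level was 21.8 ± 2.75 CPM in control and 590.2 ± 145 CPM in exposed wells, and in low responders it was 19.1 ± 2.63 and 307 ± 81.7 CPM (mean ± SD, n = 3). CHAC1, which degrades glutathione, followed with 4.15 (SE 0.26) and SESN2, a sestrin that restrains mTORC1, with 2.96 (SE 0.14). At 18 hours the largest effects were those of DDIT4 at 2.26 (SE 0.14), WARS1, the tryptophanyl-tRNA synthetase, at 2.18 (SE 0.12) and NFE2L2, the regulator of antioxidant genes and a dimer partner of ATF4, at 1.26 (SE 0.07). The gene called lower at 18 hours was ALDH18A1, an enzyme of proline synthesis, at -1.17 (SE 0.07).

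PPP1R15A, DDIT3, TRIB3 and ASNS, of the fixed set named by rule, were each called higher at both times on the mean of both phenotypes. Like the rest of the list, they could be named only where a symbol was read from the study's results on phenotype differences. PPP1R15A, or GADD34, which brings a phosphatase to eIF2, had effects of 1.85 (SE 0.14) at 3 hours and 1.16 (SE 0.11) at 18 hours. DDIT3, or CHOP, had 1.02 (SE 0.10) and 1.03 (SE 0.08). The pseudokinase gene TRIB3 had 1.74 (SE 0.16) and 0.85 (SE 0.07), and ASNS, the asparagine synthetase, had 1.43 (SE 0.13) and 1.05 (SE 0.09). For TRIB3 the 18-hour value was 1.29 in high and 0.40 in low responders.

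Several genes of the ATF4 list lost part of their effect with time. Over both phenotypes, the effect of 11 of 26 genes was called lower at 18 hours than at 3 hours and that of 1 was called higher, where 16.1% and 10.7% of all genes were. CHAC1 lost most, -3.28 (SE 0.35, adjusted p = 1.07e-05 by edgeR), and WARS1 was the gene that gained, 0.98 (SE 0.17). For ALDH18A1 the negative change of -0.68 (SE 0.11) was a deeper fall. Between phenotypes at 3 hours the list held 0 calls by edgeR and 4 by DESeq2. At an unadjusted p below 0.05 there were 12 of 25, all with the larger effect in high responders, where 1430 of all 11264 genes passed, and the median difference was 0.50 against 0.03 for all genes. In the control wells at 3 hours 11 of 25 were lower in high responders at an unadjusted p below 0.05, with 0 calls by edgeR and 4 by DESeq2, where 866 of 11034 genes passed in either direction. Symbols of the list were read from the study's own results on phenotype differences in these cows, at 3 and 18 hours. An excess over all genes can thus be built in, and none is read from these counts.

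**Figure D4:**
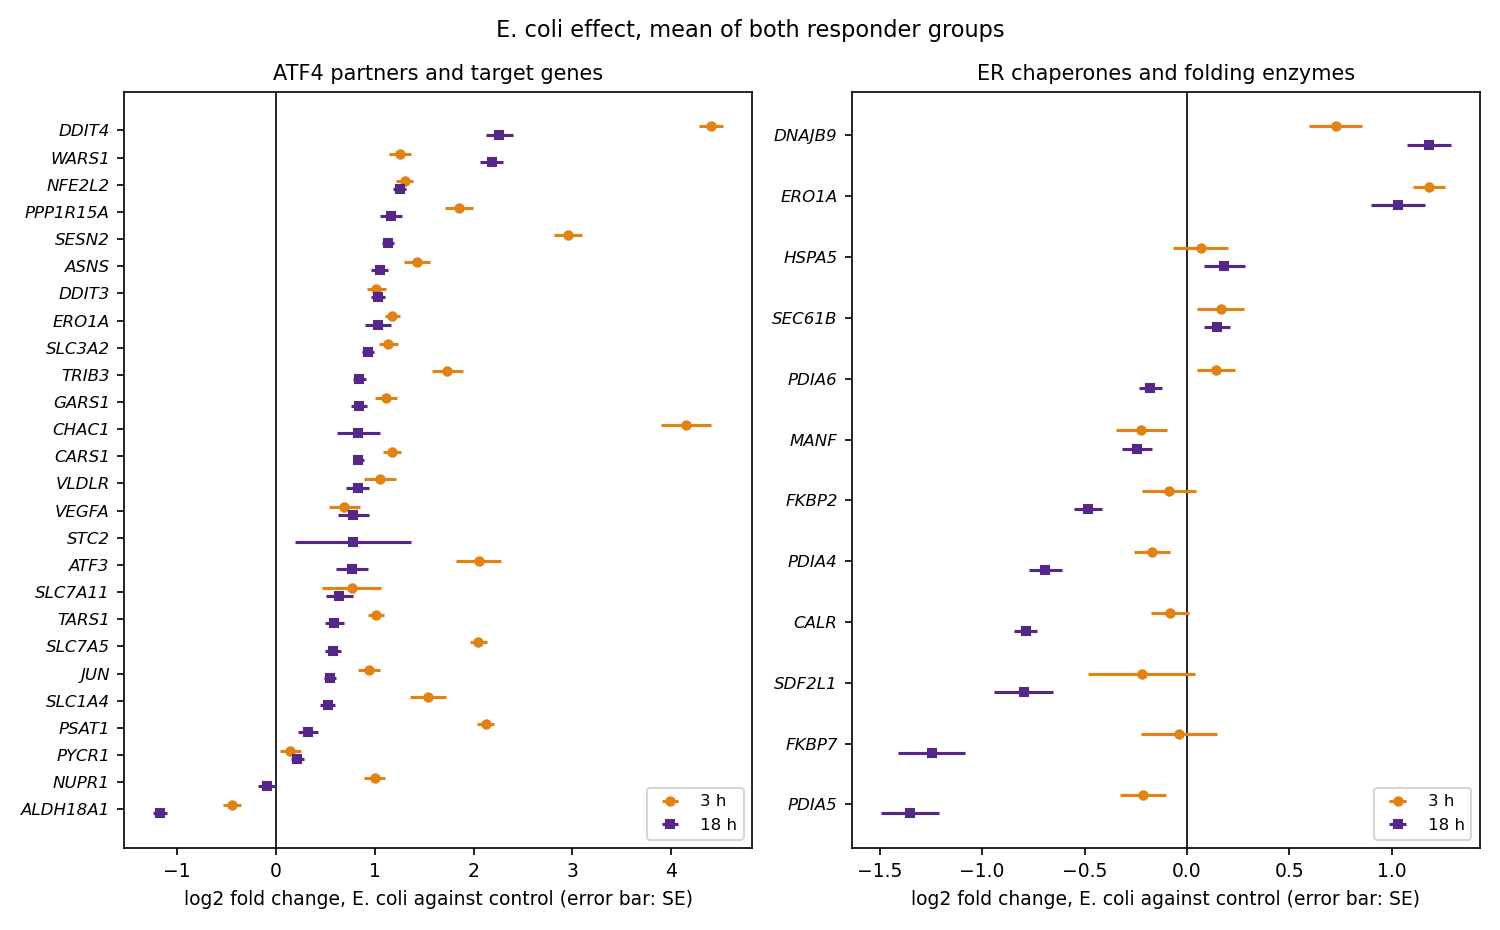
E. coli effect as log2 fold change of exposed over control wells, mean of both responder groups, at 3 hours (orange circles) and 18 hours (purple squares) for the ATF4 partner and target genes (left) and the ER chaperones and folding enzymes (right) that had a symbol, ordered by the 18-hour value, with SE as error bars. STC2 was tested only at 18 hours. Most of the ATF4 list lies to the right of 0 at both times, with medians of 1.18 and 0.83, while the ER list has medians of -0.06 and -0.36.

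The ER chaperones and folding enzymes, the group HSP90B1 belongs to, held calls in both directions at 18 hours and only upward calls at 3 hours. Of 36 listed genes 12 could be looked up, 8 of them only through the table of the 18-hour difference. At 3 hours 2 of 12 were called higher and 0 lower by edgeR, with the same counts by DESeq2 and at an unadjusted p below 0.05, and a median effect of -0.06. The share called higher was close to the 13.5% of all genes. With library totals 5 of 12 were called in either direction at 3 hours. At 18 hours 2 were called higher, again close to the 15.1% of all genes, and 5 lower, where 21.4% of all genes were, with a median of -0.36 against -0.02 for all genes.

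The pair called higher was the same at both times. DNAJB9, a co-chaperone of BiP, had effects of 0.73 (SE 0.13) and 1.18 (SE 0.11), and ERO1A, an oxidase for disulfide bonds that is also on the ATF4 list, had 1.18 (SE 0.08) and 1.03 (SE 0.13). At 18 hours PDIA5, a protein disulfide isomerase, was lower by -1.35 (SE 0.14, adjusted p = 1.66e-05 by edgeR's quasi-likelihood test), FKBP7, an ER prolyl isomerase, by -1.25 (SE 0.16) and SDF2L1 by -0.80 (SE 0.14). CALR, the calcium-binding lectin chaperone calreticulin, was lower by -0.79 (SE 0.06, adjusted p = 1.37e-06 by edgeR), and PDIA4, named after its value was seen, by -0.69 (SE 0.08). As values only, the 18-hour SDF2L1 effect was -1.33 (SE 0.21) in high and -0.27 (SE 0.19) in low responders. In the same order, ERO1A had 1.58 (SE 0.19) and 0.48 (SE 0.18), DNAJB9 had 1.51 (SE 0.16) and 0.85 (SE 0.15), and FKBP7 had -1.37 (SE 0.24) and -1.12 (SE 0.22).

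HSPA5, or BiP, the chaperone commonly read out as a sign of the unfolded protein response, was not called at either time. Its effect was 0.07 at 3 hours (SE 0.13, adjusted p = 0.719 by edgeR) and 0.18 at 18 hours (SE 0.10, adjusted p = 0.128). Its level at 18 hours in high responders was 610.2 ± 64.7 CPM in control and 606 ± 194 CPM in exposed wells, and in low responders it was 855 ± 169 and 1160 ± 165 CPM (mean ± SD, n = 3).

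Set beside HSP90B1 at 18 hours, the effects on CALR were -0.94 in high and -0.63 in low responders, those on PDIA4 were -1.02 and -0.36, and those on PDIA5 were -1.92 and -0.78. For the ATF4 list the 18-hour effects were 1.38 and 0.69 on DDIT3 and 1.51 and 0.59 on ASNS. The median 18-hour difference, high minus low, was 0.82 over the ATF4 list and -0.40 over the ER list. These values share libraries with the contrast that chose the genes, and the symbols came largely from a table ordered by it, so they are given as values only.

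Few upstream sensors could be examined. EIF2AK3, or PERK, the ER kinase of eIF2, had effects of -0.39 at 3 hours (SE 0.09, adjusted p = 0.00768 by edgeR, under the 1.5-fold limit) and 0.15 at 18 hours (SE 0.07, adjusted p = 0.0769). Its change with time was called by edgeR at 0.60 (SE 0.11), close to the 1.5-fold limit, but not by DESeq2. CREB3L2, an ER-anchored transcription factor, was called lower at 18 hours, at -0.62 (SE 0.12), close to the 1.5-fold limit. That mean joins -1.08 (SE 0.18) in high and -0.16 (SE 0.16) in low responders. When a cow was left out, 1 to 2 genes of the sensor list were called at 18 hours. XBP1, ERN1 and ATF6, and the chaperones and degradation genes HSP90AA1, CNPY3, SEL1L, OS9 and DNAJC10, were not analysed here.

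In the HSP90 and chaperone list, 3 of 20 genes could be looked up. HSP90AB1, the cytosolic relative of HSP90B1, had effects of 0.21 (SE 0.09, adjusted p = 0.0842 by edgeR) and 0.13 (SE 0.07, adjusted p = 0.129). HSPA9, the mitochondrial HSP70, was called higher at both times, at 0.79 (SE 0.07) and 0.80 (SE 0.06). FKBP5, an HSP90 co-chaperone that glucocorticoids induce, was called lower at both, at -0.79 (SE 0.09) and -3.03 (SE 0.11).

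Of 18 proteins listed as clients of HSP90B1, 7 had a symbol and 6 were tested. TLR2, a receptor for bacterial lipoproteins, was called higher at 3 hours, 0.71 (SE 0.07), and at 18 hours, 0.63 (SE 0.06). TLR4, the receptor for lipopolysaccharide, had 0.20 (SE 0.08, adjusted p = 0.0939 by edgeR) and -0.03 (SE 0.06, adjusted p = 0.623). The integrin genes ITGAL and ITGB7 were called at 18 hours in opposite directions, at 0.79 (SE 0.11) and -0.78 (SE 0.18), and LRRC32 was called lower at 3 hours, at -0.93 (SE 0.15). By phenotype, the 18-hour ITGB7 effect was -0.08 (SE 0.25) in high and -1.49 (SE 0.26) in low responders. For ITGAL these values were 1.20 (SE 0.16) and 0.39 (SE 0.15). RNA of the clients does not measure how they were folded.

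In the ER-associated degradation list, where FOXRED2 belongs by function, 2 of 31 genes could be looked up. SELENOS, a membrane protein of the degradation complex, was called higher at 3 hours, 0.73 (SE 0.13), and at 18 hours, 1.00 (SE 0.07), the direction opposite to that of FOXRED2. MAN1B1, a mannosidase that marks glycoproteins for degradation, had -0.18 (SE 0.09) and -0.42 (SE 0.08) and was not called.

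The genes most like each of the 3 in pattern were found by Pearson's r of log2 CPM over the 24 libraries, among 11904 genes. The libraries share cows, treatment and time, so these are descriptions without a p-value. For ATF4 they were RCAN1 (r = 0.97), GPR84 (0.96), PPP1R15A (0.96), NUB1 (0.96) and SDC4 (0.96), and the most opposite gene with a symbol was PDK4 (-0.96). RCAN1, a regulator of calcineurin, went from 195 ± 11.6 to 1771 ± 326 CPM at 3 hours and from 181 ± 10.3 to 791 ± 108 CPM at 18 hours in high responders (mean ± SD, n = 3). PDK4, a kinase that restrains pyruvate dehydrogenase, went from 152 ± 38.3 to 19.6 ± 1.70 CPM and from 148 ± 55.3 to 37.3 ± 11.0 CPM in the same cells.

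HSP90B1 had no neighbour as close. CALR (r = 0.88) and PDIA5 (0.87), both of the ER list, led its order, EIF5A (0.85) was the next gene with a symbol, and ATG16L2 (-0.82) and TANC2 (-0.80) were among the most opposite. At 18 hours CALR stood at 1324 ± 153 CPM in control and 697 ± 98.8 CPM in exposed high responder wells, and at 1422 ± 136 and 932 ± 108 CPM in low responders. PDIA5 stood at 20.0 ± 3.08 and 5.35 ± 2.40 CPM in high responders and at 21.9 ± 3.72 and 12.8 ± 2.16 CPM in low responders.

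For FOXRED2 the gene highest in the order had no symbol here (ENSBTAG00000007569, r = 0.96), and PRKD3, a protein kinase D, came next (0.95). GJB2, a connexin of gap junctions, was the most opposite (-0.95) and ATP6V1E1, a subunit of the proton pump of endosomes and lysosomes, was close to it (-0.95). In high responders at 18 hours GJB2 went from 3.60 ± 1.21 CPM in control to 120 ± 28.2 CPM in exposed wells. Among the 3 genes themselves r was -0.12 between ATF4 and HSP90B1, -0.67 between ATF4 and FOXRED2 and 0.38 between HSP90B1 and FOXRED2.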

How the data were processed

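RNA of MDMs in 24 wells, 3 cows per condition, was sequenced as stranded mRNA libraries. The submitters' processing notes name Trimmomatic, FastQC 0.11.5, STAR, RSEM and DESeq2 1.22.2, and the bovine build was UMD 3.1. The authors deposited RSEM expected counts, TPM and effective lengths per gene. Expected counts were rounded to whole numbers. Depth per library and the counts behind the 3 genes are given in the report, and p-values rest on the spread between cows.

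edgeR 4.0.16 (R 4.3.3) filtered genes with filterByExpr by condition, scaled by TMM and fitted quasi-likelihood models within each time point with a term for each cow, and the E. coli effect is the mean over both phenotypes. Change with time was fitted over all 24 libraries. Comparisons of phenotypes within control or exposed wells, and of control wells between times, had no block. The script was tested on simulated counts. Library numbers were taken to pair the wells of a cow. Deviations from condition means correlated at 0.327 to 0.732 in 12 same-number pairs and at -0.568 to 0.00521 in 24 others. Centring on condition means by itself lowers the values of the other pairs when same-number pairs are high. Wells that share a number could also share a batch, so these correlations do not show that the number marks a cow. Replicate libraries differed by more than sampling noise.

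The 3 genes and the gene lists were chosen with earlier results of these data known. Symbols came from the gene name column of the supplementary tables, of which 1997 rows each were held, giving 2808 symbols, so 51 of 172 listed genes were matched. Synonyms came from a RefSeq gene table. Genes were named by rule: the 3 genes, up to 3 called genes per list, direction and time with the largest effect, a fixed set of ER and stress genes, and the 5 most and 3 least correlated genes with each. NUPR1, PYCR1, PDIA4 and MAN1B1 were named outside this rule. The authors' fold changes and p-values in those tables were not used. Alternatives were RLE size factors, DESeq2 1.42.0, other count filters, effective-length offsets, no minimum fold change, no cow block, 1 joint fit, a term for library code, leaving out each cow and library totals. Leaving out a cow removed its wells at 1 time point only.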

Additional observations from a re-analysis of the deposited data

Results flagged for a closer look

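The E. coli effect on FOXRED2 differed between the time points by a test of the difference itself. The effect over both phenotypes was -1.13 at 3 hours and -2.47 at 18 hours, and the change was -1.29 on the log2 scale (SE 0.27, adjusted p = 0.00212 by edgeR's quasi-likelihood test). It lay between -1.55 and -1.16 when the wells of any cow at 1 time point were left out, and it was called in all 12 such fits. Each of these fits kept all wells of the other time point. The change was -1.60 (SE 0.37) in high and -0.98 (SE 0.40) in low responders, given as values only. Each time point had its own plate, so time and plate cannot be told apart. The exposed libraries at 18 hours held 50 FOXRED2 counts in high and 42 in low responders, and counting error is part of the spread there.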

How the results depend on the processing

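Of the values of the 3 genes and the counts over all lists, 431 kept direction and side of the threshold under an alternative, 9 passed it only there, 1 lost it, 5 moved and 5 turned sign. Of the counts for single lists, 212 stayed within 1.5 times and 12 moved. With library totals, added after the data were seen, ATF4's 18-hour effect was 0.52 and no longer called, HSP90B1's was -0.64 and called, ATF4's 18-hour difference between phenotypes was 0.39, its control difference between times turned to 0.028, and 10 listed genes, not 2, were called lower at 3 hours. Without a minimum fold change, HSP90B1's 18-hour effect (-0.45) and ATF4's change with time (-0.56) passed, and 4 and 14 listed genes were called lower at 3 and 18 hours against 2 and 9. ATF4's change with time also passed with RLE (-0.59) and DESeq2 (-0.59). It ran from -0.63 to -0.50 when a cow's wells at 1 time point were left out, with 4 of 12 fits called. Without the replicate block, 0 listed genes were called lower at 3 hours against 2 with it (FKBP5 and LRRC32), and no call of the 3 genes changed. Leaving out a cow turned the sign of HSP90B1's 3-hour effect (-0.0875 to 0.0721, the latter without the high responder coded 94), of its difference between exposed wells at 3 hours (-0.0166 without the high responder coded 92 to 0.15, and -0.00906 without the low responder coded 91) and of ATF4's control difference between times (-0.10 to 0.00854, the latter without the low responder coded 91 at 3 hours). None of these was called, and the cause was not tested. A mean of at least 50 counts removed FOXRED2 from the 3-hour effect, its difference between phenotypes and exposed wells at 3 hours. Depth limits FOXRED2 most, and 3 cows per phenotype limit every difference between phenotypes.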
